A study of Mus musculus with 8 samples.

Results

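The protein phosphatases described here are the serine and threonine phosphatases PP1 to PP6, with their catalytic and regulatory subunits. A probe set, a group of array probes for one transcript, was a member if its only annotated gene symbol begins with Ppp, a family number from 1 to 6 and c (catalytic) or r (regulatory). The rule gave 79 genes of the 18193 that have a probe set with 1 gene symbol, and 172 probe sets of the 45037 on the array. Of these, 28 probe sets belong to 11 genes for catalytic subunits and 133 to 64 genes for regulatory subunits. The other 11 belong to 4 genes named as pseudogenes or as an opposite-strand transcript (Ppp1r2-ps7, Ppp1r2-ps9, Ppp4r1l-ps and Ppp2r2cos). The rule itself uses no measured value, but it was chosen with earlier results of these data known.

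Polysomal mRNA, the mRNA held by clusters of translating ribosomes, was measured on 8 arrays from mouse. Of these, 4 were of oocytes arrested at metaphase II (MII), with no treatment named, and 4 were of one-cell embryos after treatment with α-amanitin, which blocks RNA polymerase II. Each array stands for a batch of 160 to 500 pooled cells, and the replicates are independent per the labels. The sources used here give no strain, age, dose or collection time. The stage and the drug changed together, so their parts cannot be told apart. Each signal is relative to its array's total, so less of an mRNA and less of it on ribosomes cannot be told apart either.

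PP1 and PP2A carry out most removal of phosphate from serine and threonine in animal cells. Their catalytic subunits are nearly always bound to a regulatory subunit that sets where the enzyme goes and what it acts on. PP2A works as a trimer of a scaffold (Ppp2r1), a catalytic subunit (Ppp2ca or Ppp2cb) and a variable B subunit of the B55 (Ppp2r2), B″ (Ppp2r3) or B56 (Ppp2r5) class. PP2A with B55 reverses phosphorylations made by Cdk1. It is held off in M phase by the small proteins Ensa and Arpp19 once the kinase Mastl has phosphorylated them, a pathway worked out in frog egg extracts. PP2A with B56 acts with shugoshin at centromeres, where it protects cohesin in meiosis. PP3 is calcineurin, the phosphatase switched on by calcium and calmodulin. PP4 and PP6 are close relatives of PP2A, and PP5 carries its own regulatory domain.

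The arrays were described before the members were compared. All 11 oocyte marker genes (among them Zp3, Gdf9 and Dppa3) were measured, with summed signals of 74743 to 97803 on the MII arrays and 53298 to 80214 on the one-cell arrays. The 15 cumulus and granulosa markers summed to 828 to 941 on the MII arrays and 639 to 2302 on the one-cell arrays. The 8 sperm markers summed to 280.4 to 328 and 271 to 713. One-cell array 1 gave the highest value of both of these lists, and without it the highest one-cell values were 1085 and 389. The median signal over all probe sets was also highest on that array (71.8, against 26.9 to 37.9 on the other 7 arrays). No marker probe set was at 0. Single markers passed the test described below in both directions. Of the 11 oocyte markers, 3 rose (Zp2, Bmp15 and Nlrp5, with changes of 0.82 ± 0.29, 0.87 ± 0.32 and 1.09 ± 0.30 on the log2 scale) and 3 fell (Gdf9, H1f8 and Zar1, with changes of -2.17 ± 0.43, -1.999 ± 0.35 and -1.005 ± 0.35). Of the 7 cumulus and granulosa markers tested, Cyp11a1 rose, from 25.5, 27.6, 32.5 and 45.1 on the MII arrays to 209, 74.0, 45.5 and 89.5 on the one-cell arrays (1.26 ± 0.43 SE, adjusted p = 0.032). Of the 4 sperm markers tested, the protamine Prm2 rose, from 28.0, 31.5, 15.7 and 46.1 to 246, 131, 80.3 and 152 (1.96 ± 0.39 SE, adjusted p = 0.00103), and was above all MII arrays on each one-cell array. Akap4, of the sperm tail, fell, with 61.8 to 107 on the MII arrays and 6.1 to 25.9 on the one-cell arrays (-1.77 ± 0.41 SE, adjusted p = 0.00333). The part of other cells in the results below was not tested. One-cell array 1 also had the brightest hybridization controls, RNAs added in fixed amounts (geometric mean 14879, against 857 to 3718 on the other 7 arrays).

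Of the 172 probe sets, 104 (55 genes) lay above the array's own median signal on at least 4 of the 8 arrays and were tested. The other 68 did not, and 24 genes had no probe set kept. Differences were tested with limma on log2(signal + 10) over all 23336 probe sets kept, with Benjamini-Hochberg adjustment and a threshold of 0.05. Every log2 change below is one-cell embryo minus MII oocyte from that fit, with its standard error (SE), and understates the change of dim mRNAs. Values of the 4 arrays of a group are given in the order of replicates 1 to 4.

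Among the 104 phosphatase probe sets, 17 rose in one-cell embryos, 21 fell and 66 did not pass the test. Over all probe sets kept, 19.3% rose and 12.8% fell, against 16.3% and 20.2% of the phosphatase probe sets. The median change of the phosphatase probe sets was -0.26, and that of all probe sets kept was 0.17. Only 1 of the 104, for Ppp1r11, was above the median on all arrays of one group and on no array of the other. Without the filter, 14 of the 172 rose and 18 fell, where 9.64% of all probe sets rose and 5.72% fell. Among all 172, the one-cell arrays lay wholly above the MII arrays in 18 and wholly below them in 25, against 12.1% and 7.44% of all probe sets. Without one-cell array 1 the fit gave 19 rises and 22 falls, which include 16 of the 17 rises and 19 of the 21 falls found with all arrays. Without one-cell arrays 1 and 4 it gave 15 and 19. Scaling moved the balance. Rises were 44.7% of the phosphatase calls and 60.2% of all calls here, 37.1% and 48.6% after quantile normalization (13 rises, 22 falls), and 33.3% and 50.7% with each array centred on its median (9 rises, 18 falls). The median of all probe sets kept moved from 0.17 to -0.12 and -0.15 under these scalings, and that of the phosphatases from -0.26 to -0.30 and -0.58.

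Counts by family and role follow, where 19.3% of all probe sets kept rose and 12.8% fell. In PP1, 7 of 42 probe sets kept rose (16.7%) and 8 fell (19.0%). In PP2A, 9 of 34 rose, of 7 genes, and 9 fell, of 4 genes. In PP4, 1 of 12 rose and 4 fell, and without MII array 1 or without MII array 3 only 2 fell. These 12 include 3 of the pseudogene Ppp4r1l-ps, none of which passed. None of the probe sets of PP3 (7), PP5 (3) and PP6 (6) passed. Either direction together, 32.1% of all probe sets kept passed. The medians were -0.35 for PP1, -0.26 for PP2A, 0.01 for PP3, -0.24 for PP4, -1.05 for PP5 and 0.46 for PP6. Within PP4, the 3 probe sets of Ppp4r1l-ps had a median of 0.65. The 8 regulatory ones had a median of -0.62, and the catalytic one changed by -1.28. The difference between families was not tested, since probe sets of a gene are not replicates. By role, 1 of 20 catalytic probe sets rose and 4 fell, with a median of -0.60. Of 81 regulatory probe sets, 16 rose and 17 fell, with a median of -0.14. The share of regulatory probe sets that rose (19.8%) lies near that of all probe sets kept. The 21 probe sets that fell had a median MII signal of 901, and the 17 that rose one of 117. Over all probe sets kept these medians were 802 and 73.4.

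**Figure D1:**
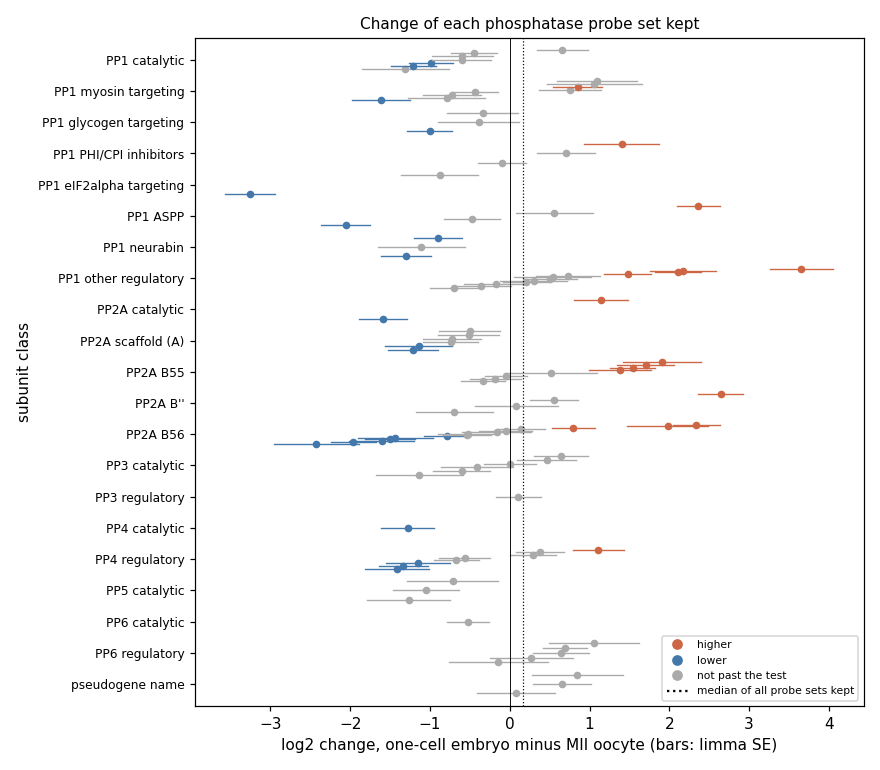
Log2 change of each of the 104 phosphatase probe sets kept, one-cell embryo minus MII oocyte, by subunit class, with limma SE as bars and colour for the result of the test. Changes run from -3.25 (Ppp1r15b) to 3.65 (Ppp1r11), most catalytic probe sets lie left of 0, and the dotted line marks the median of all probe sets kept (0.17).

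Of the PP1 catalytic subunits, Ppp1cb (PP1β) fell and the others did not pass. Signals of Ppp1cb probe set 1426205_at were 999, 656, 1132 and 816 on the MII arrays and 424, 357, 454 and 292 on the one-cell arrays. Every one-cell array lay below every MII array, and the change was -1.21 ± 0.28 (SE, adjusted p = 0.00326). Probe set 1433540_x_at gave 958, 1360.1, 1065 and 1400.4 on the MII arrays and 437, 622, 707 and 624 on the one-cell arrays, again with no overlap, and changed by -0.99 ± 0.28 (SE, adjusted p = 0.011). The other kept probe sets of Ppp1cb lay in the same direction without passing (-0.45 ± 0.29 and -0.60 ± 0.37), and the mean over its 4 probe sets changed by -0.81 ± 0.22 (SE, adjusted p = 0.00938). With the signal of the hybridization controls added to the fit 1433540_x_at lost its call (-0.77, adjusted p = 0.068).

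Ppp1cc (PP1γ) and Ppp1ca (PP1α) did not pass. Ppp1cc probe set 1450149_a_at gave 1815, 3086, 2541 and 3579 on the MII arrays and 789, 2472, 2452 and 2030.1 on the one-cell arrays. One-cell array 1 was lowest and the others lay within the range of the MII arrays, with a change of -0.59 ± 0.38 (SE, adjusted p = 0.27). Its other probe set, 1452046_a_at, gave 387, 217, 366 and 337 on the MII arrays and 17.2, 220.2, 222 and 205 on the one-cell arrays. Here the one-cell arrays 2 to 4 lay close together and array 1 far below them, and the change was -1.31 ± 0.54 (SE, adjusted p = 0.0778). Ppp1ca gave 309.5, 457, 290.5 and 371 on the MII arrays and 307, 671, 612 and 784 on the one-cell arrays, with overlapping groups and a change of 0.66 ± 0.32 (SE, adjusted p = 0.128).

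The 2 kept probe sets of Ppp2ca, the main catalytic subunit of PP2A, moved in opposite directions. Probe set 1417367_at gave 742, 699.6, 776 and 624 on the MII arrays and 740.5, 1921, 2352 and 1811 on the one-cell arrays. One-cell arrays 2 to 4 lay above all MII arrays, array 1 lay within them, and the change was 1.14 ± 0.34 (SE, adjusted p = 0.0163). It was 1.50 without one-cell array 1 (adjusted p = 0.000192), and lost its call with each array centred on its median (0.82, adjusted p = 0.298) or without one-cell array 3 (0.94, adjusted p = 0.0552). Probe set 1456390_at gave 176, 149, 158 and 176 on the MII arrays and 33.5, 52.8, 50.2 and 57.7 on the one-cell arrays. All one-cell arrays lay below all MII arrays, the change was -1.59 ± 0.30 (SE, adjusted p = 0.000731), and the call held in each of the 18 alternative fits of single probe sets. Averaged over both, Ppp2ca changed by -0.23 ± 0.25 (SE, adjusted p = 0.545), which does not pass. The third probe set of Ppp2ca and both of Ppp2cb were not kept, with a highest signal of 69.6 on any array.

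The PP2A scaffold is read mainly through Ppp2r1a, with 5 probe sets of which 4 can match other transcripts too (suffix _x_at). Probe set 1415819_a_at gave 2655, 2209, 1391 and 1417 on the MII arrays and 551, 1143, 793 and 777 on the one-cell arrays. The one-cell arrays lay below the MII arrays without overlap, and the change was -1.21 ± 0.32 (SE, adjusted p = 0.00744). The call was lost with the signal of the hybridization controls added to the fit (adjusted p = 0.0584). Probe set 1438174_x_at fell by a similar amount with overlapping groups (-1.14 ± 0.42 SE, adjusted p = 0.0462) and lost its call in 13 of 18 alternative fits, among them without any 1 of MII arrays 1, 2 and 4 and one-cell arrays 1, 3 and 4 (adjusted p up to 0.183 over all fits). The other 3 probe sets did not pass (-0.52 ± 0.38, -0.50 ± 0.38 and -0.73 ± 0.37). Averaged over all 5, Ppp2r1a changed by -0.82 ± 0.32 (SE, adjusted p = 0.064), which does not pass. Ppp2r1b, the other scaffold gene, gave 488, 261, 460.5 and 354 on the MII arrays and 115, 320.5, 309 and 215 on the one-cell arrays, with overlapping groups and a change of -0.74 ± 0.34 (SE, adjusted p = 0.113).

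Ppp4c, the catalytic subunit of PP4, fell. Its only probe set gave 1015, 1296, 1135 and 1145 on the MII arrays and 243, 379, 640.3 and 781 on the one-cell arrays, with no overlap and a 2.25-fold lower mean in one-cell embryos (log2 change -1.28 ± 0.34 SE, adjusted p = 0.00766). The call was lost with the signal of the hybridization controls added to the fit (-0.83, adjusted p = 0.102). Ppp6c gave 385, 302, 408 and 279.5 on the MII arrays and 277, 214, 232 and 215 on the one-cell arrays. The one-cell arrays lay just below the MII arrays, but the change of -0.52 ± 0.27 (SE, adjusted p = 0.156) did not pass. The 3 probe sets of Ppp5c changed by -0.72 ± 0.57, -1.27 ± 0.52 and -1.05 ± 0.41, with overlapping groups and adjusted p of 0.389, 0.0766 and 0.0618.

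Calcineurin mRNAs gave no call. The catalytic genes Ppp3ca, Ppp3cb and Ppp3cc had 6 probe sets kept, with changes from -1.13 to 0.64 and mean signals of 19.7 to 151 in either group. Ppp3ca probe set 1438478_a_at, for example, gave 195, 174, 133 and 89.4 on the MII arrays and 221, 132, 119 and 119 on the one-cell arrays, with overlapping groups and a change of 0.0064 ± 0.33 (SE, adjusted p = 0.993). Probe sets of Ppp3cb lay on both sides of 0 (-0.60 ± 0.36, 0.46 ± 0.37 and 0.64 ± 0.34). The calcium-binding subunit Ppp3r1 gave 848, 789, 1254 and 1121 on the MII arrays and 946, 1054, 1392 and 914 on the one-cell arrays. Its groups overlapped and the change was 0.11 ± 0.28 (SE, adjusted p = 0.826). Ppp3r2, known from testis, was not kept.

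**Figure D2:**
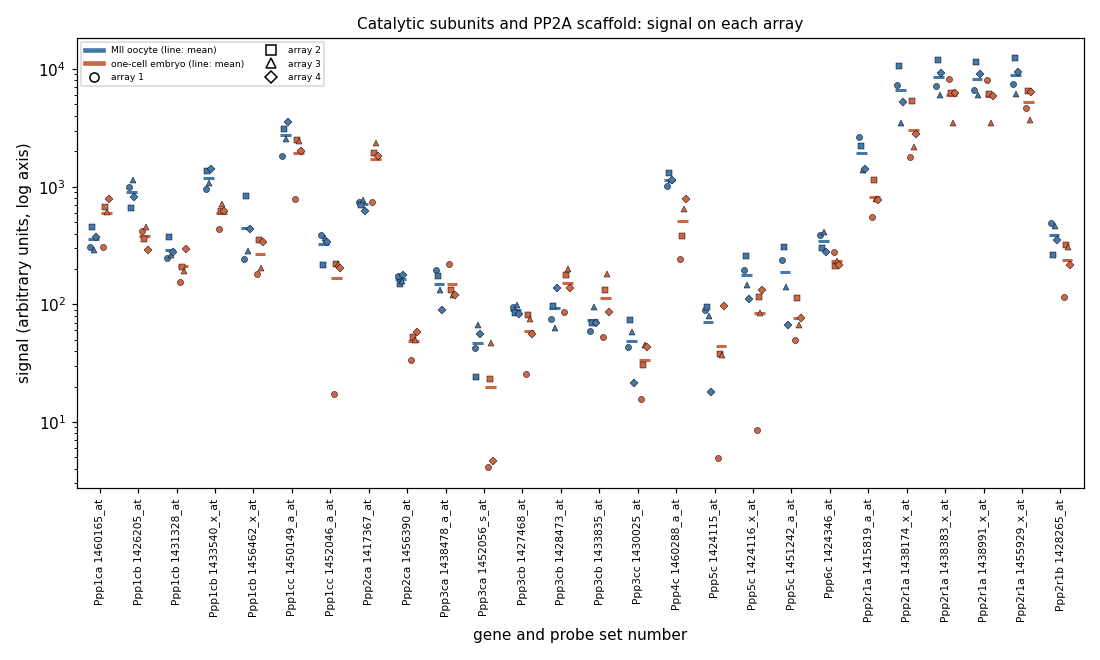
Signal on each of the 8 arrays (log axis, arbitrary units) for the kept probe sets of the catalytic subunits and of the PP2A scaffold, with lines at the group means and a marker shape for each array. The 2 Ppp2ca probe sets shift in opposite directions, the groups of Ppp4c and of 1426205_at for Ppp1cb do not overlap, and one-cell array 1 lies far below the other one-cell arrays for 1452046_a_at of Ppp1cc.

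Among the B55 subunits of PP2A, Ppp2r2d (B55δ) rose on all 3 of its probe sets while Ppp2r2a (B55α) passed on none. Ppp2r2d probe set 1424527_at gave 514, 1138, 812 and 849 on the MII arrays and 3871, 1556, 2098 and 3715 on the one-cell arrays. The lowest one-cell array lay above the highest MII array, the mean was 3.39-fold higher and the log2 change was 1.70 ± 0.35 (SE, adjusted p = 0.00143). Probe set 1420033_s_at gave 425, 522, 469.5 and 748 on the MII arrays and 1257, 1438, 1805 and 1806 on the one-cell arrays, also without overlap (1.54 ± 0.28 SE, adjusted p = 0.00053). The third, 1420034_at, gave 45.6, 70.5, 18.1 and 70.9 on the MII arrays and 133, 125, 102 and 211 on the one-cell arrays (1.39 ± 0.39 SE, adjusted p = 0.0112). After each array was centred on its median, 1424527_at kept its call (1.38, adjusted p = 0.0255), while 1420033_s_at (1.22, adjusted p = 0.0527) and 1420034_at (1.07, adjusted p = 0.0601) missed the threshold, and 1420034_at also missed it without one-cell array 4 (highest adjusted p over all fits 0.0899). Averaged over the 3, Ppp2r2d changed by 1.54 ± 0.26 (SE, adjusted p = 0.000405).

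The 3 probe sets of Ppp2r2a changed by -0.047 ± 0.26, -0.18 ± 0.32 and -0.34 ± 0.28. Its probe set 1437730_at gave 503, 406, 459 and 456 on the MII arrays and 322, 471, 489 and 504 on the one-cell arrays, with overlapping groups, and the mean over the 3 changed by -0.19 ± 0.22 (SE, adjusted p = 0.557). Ppp2r2b, a B55 subunit known from brain, rose on 1 probe set (1.91 ± 0.49 SE, adjusted p = 0.00615) from signals of 2.6, 5.5, 25.5 and 34.3 on the MII arrays to 117, 62.3, 70.6 and 71.7 on the one-cell arrays. Of the MII values, 3 lie below their array's median, so the fold is poorly set. Ppp2r2c did not pass (0.52 ± 0.58). In all, 4 of 8 B55 probe sets rose and 0 fell, with a median of 0.95, where 19.3% of all probe sets kept rose and 12.8% fell, with a median of 0.17. Of the 4 rises, 3 are of 1 gene, Ppp2r2d. At an unadjusted limma p under 0.05, 0 of the 8 were lower as well.

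Among the B56 subunits, 3 of 14 probe sets rose and 6 fell, with a median of -0.53, beside 19.3% and 12.8% of all probe sets kept. The share that rose lies near that of all probe sets, and 4 of the 6 falls are of 1 gene. Ppp2r5e (B56ε) fell on all 4 kept probe sets. Probe set 1439401_x_at gave 1165, 1157, 1181 and 714 on the MII arrays and 214, 219, 286 and 331 on the one-cell arrays. Every one-cell array lay below every MII array, the mean was 4.02-fold lower and the log2 change was -1.96 ± 0.28 (SE, adjusted p = 6.37e-05). The others changed by -2.42 ± 0.54 (SE, adjusted p = 0.00229) for 1428461_at, -1.51 ± 0.31 (SE, adjusted p = 0.00147) for 1428463_a_at and -1.61 ± 0.41 (SE, adjusted p = 0.00625) for 1452788_at, each without overlap. One-cell array 1 was far the lowest in 1428461_at (11.8, against 104.8 to 189.8 on the others), and without it that change was -1.71 (adjusted p = 0.00056). Averaged over the 4, Ppp2r5e changed by -1.87 ± 0.27 (SE, adjusted p = 0.000142).

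Ppp2r5d (B56δ) rose. Its only probe set gave 68.5, 119, 61.4 and 72.3 on the MII arrays and 546, 346, 434 and 433 on the one-cell arrays. The groups lay well apart, the mean was 5.47-fold higher and the log2 change was 2.34 ± 0.29 (SE, adjusted p = 1.78e-05). Ppp2r5b (B56β) rose by 1.98 ± 0.51 (SE, adjusted p = 0.00656) from 10.9, 48.8, 7.5 and 32.1 on the MII arrays to 286, 53.3, 86.4 and 111 on the one-cell arrays. Of its MII values 2 lay below the array median, and the call was lost with the signal of the hybridization controls added to the fit (adjusted p = 0.107) or without one-cell arrays 1 and 4 (adjusted p = 0.0765). Ppp2r5a (B56α) did not pass (-0.54 ± 0.30 SE, adjusted p = 0.197).

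Ppp2r5c (B56γ), which is made in several splice forms, had 7 probe sets kept with calls both ways. Probe set 1425542_a_at rose, from 890.1, 677, 779 and 852 to 1430.3, 1033, 1517 and 1666 (0.80 ± 0.27 SE, adjusted p = 0.0338), without overlap. Probe set 1434205_at fell, from 1648, 1255, 1441 and 1647 to 665, 839, 1240.0 and 780.5 (-0.79 ± 0.28 SE, adjusted p = 0.0432), also without overlap. Probe set 1427003_at fell with overlapping groups and one-cell array 1 far the lowest (1743, 1177, 1873 and 1949.7 against 166, 908, 1300.1 and 671, -1.43 ± 0.47 SE, adjusted p = 0.0273). Without one-cell array 1 its change was -0.83 (adjusted p = 0.0351), and with the signal of the hybridization controls in the fit -0.29 (adjusted p = 0.555). The 3 calls were lost in 11, 13 and 9 of the 18 alternative fits, with adjusted p up to 0.418, 0.27 and 0.555. Leaving out any 1 of MII arrays 1, 3 and 4 and one-cell array 4 ended all 3 of them, MII array 2 and one-cell array 3 ended that of 1425542_a_at alone, and one-cell array 1 or 2 that of 1434205_at. The remaining 4 did not pass (from -0.52 to 0.14), and the mean over the 7 was -0.29 ± 0.22 (SE, adjusted p = 0.349).

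In the B″ class, Ppp2r3c rose on 1 of its 2 kept probe sets. Probe set 1417478_a_at gave 56.8, 40.8, 51.6 and 52.4 on the MII arrays and 334, 396, 448 and 300.4 on the one-cell arrays. The groups lay far apart, the mean was 7.34-fold higher and the log2 change was 2.64 ± 0.28 (SE, adjusted p = 3.88e-06). The other, 1417479_at, was higher on every one-cell array too, but its change did not pass (0.56 ± 0.30 SE, adjusted p = 0.184). Averaged over both, Ppp2r3c changed by 1.60 ± 0.23 (SE, adjusted p = 0.00011). Ppp2r3a and Ppp2r3d did not pass (0.082 ± 0.52 and -0.69 ± 0.48).

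**Figure D3:**
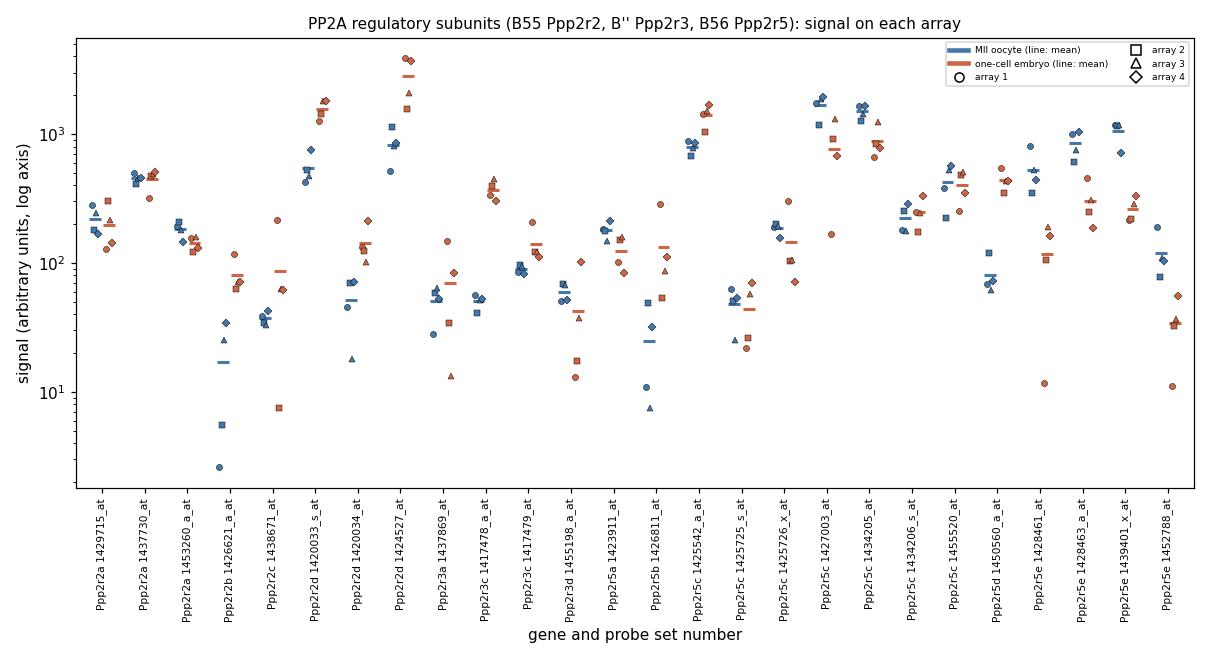
Signal on each of the 8 arrays (log axis, arbitrary units) for the kept probe sets of the variable PP2A subunits, with lines at the group means and a marker shape for each array. The 3 Ppp2r2d probe sets and those of Ppp2r5d and Ppp2r3c (1417478_a_at) are higher in one-cell embryos, and all 4 of Ppp2r5e are lower, without overlap.

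Among the proteins that regulate or assemble PP2A, 4 of 19 measured genes rose and 8 fell, each gene read by its brightest kept probe set, where 20.6% of all genes rose and 14.8% fell. The median change was -0.16, beside 0.17 over all genes read that way. The inhibitor Ensa rose from 81.0, 73.5, 90.3 and 80.9 on the MII arrays to 254, 201, 275 and 150.1 on the one-cell arrays, without overlap (1.30 ± 0.29 SE, adjusted p = 0.00273). Arpp19, the related inhibitor, has probe sets with opposite calls. Its probe set 1450685_at fell from 2519, 1970.3, 2938 and 2797 to 313, 1199, 1317 and 849 (-1.63 ± 0.39 SE, adjusted p = 0.00403). Its probe set 1422608_at rose from 59.6, 52.9, 44.2 and 62.6 to 234, 146, 128 and 117 (1.32 ± 0.32 SE, adjusted p = 0.00453), and 1422609_at rose too (1.52 ± 0.35 SE, adjusted p = 0.0028). Averaged over the 3, Arpp19 changed by 0.40 ± 0.24 (SE, adjusted p = 0.227).

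Mastl, the kinase upstream of both inhibitors, showed the same split. Its probe set 1423524_at fell from 3171, 4636, 2816 and 2708 to 711, 1816, 1540.1 and 1636 (-1.27 ± 0.34 SE, adjusted p = 0.00921). Its probe set 1423525_at rose from 74.2, 80.9, 100.2 and 76.4 to 195, 247, 329 and 143 (1.31 ± 0.31 SE, adjusted p = 0.00391). The third did not pass (0.66 ± 0.32) and the mean of the 3 changed by 0.23 ± 0.23 (SE, adjusted p = 0.48). In both Mastl and Arpp19 the brightest probe set fell and dimmer ones rose. The mean weighs bright and dim probe sets alike, so it leaves the direction of either gene undecided. Bod1, which inhibits PP2A with B56 at kinetochores in human cells, fell from 9766, 5118, 7418 and 8459.6 to 947, 3699, 3229 and 1751 (-1.82 ± 0.42 SE, adjusted p = 0.00304), without overlap. Its relative Bod1l fell as well (-1.70 ± 0.32). The shugoshin Sgo2a, which recruits PP2A with B56 to protect cohesin in mouse oocytes, fell (-1.33 ± 0.32), while Sgo1 did not pass (-0.16 ± 0.29) although its other probe set rose (1.55 ± 0.50).

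The factors that build or modify the catalytic subunit held both directions. Igbp1 (α4), which holds free catalytic subunits of PP2A, PP4 and PP6, rose from 113, 77.8, 118 and 154 to 541, 629.7, 714 and 471 (2.27 ± 0.29 SE, adjusted p = 1.8e-05). The groups did not overlap, and the mean over its 4 probe sets changed by 1.47 ± 0.29 (SE, adjusted p = 0.00122). The PP2A activator Ptpa rose (2.42 ± 0.40), with both of its kept probe sets past the test, and so did the methyltransferase Lcmt1 (0.96 ± 0.32). Tiprl fell (-1.27 ± 0.37) on 1 of 2 probe sets, with a mean that did not pass (-0.82 ± 0.37 SE, adjusted p = 0.111), and the demethylase Ppme1 did not pass (-0.066 ± 0.30). Of the PP2A inhibitors of another kind, Anp32e fell from 1403, 934, 1366 and 882 to 172, 349, 343 and 288 (-1.97 ± 0.30 SE, adjusted p = 0.000108) and Anp32b fell too (-1.15 ± 0.31). Anp32a (0.25 ± 0.32) and Cip2a (0.57 ± 0.33) did not pass. Set did not pass on its brightest probe set (-0.11 ± 0.28), rose on another (2.61 ± 0.54) and had a mean that did not pass (0.73 ± 0.27 SE, adjusted p = 0.0536).

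**Figure D4:**
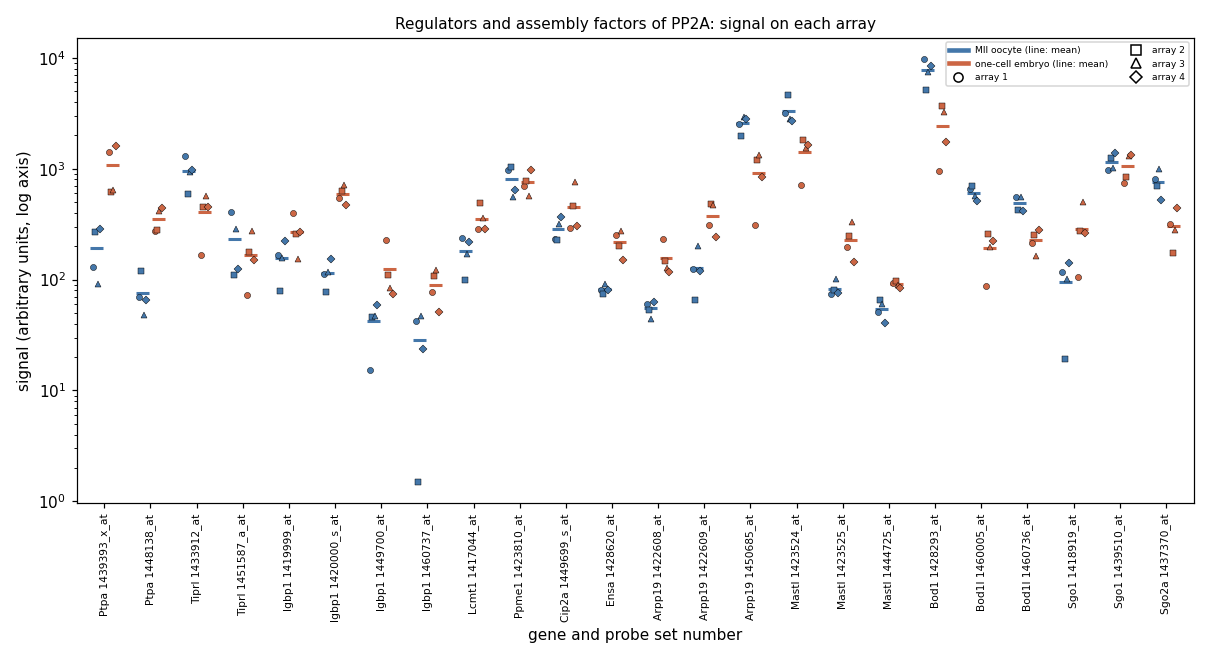
Signal on each of the 8 arrays (log axis, arbitrary units) for the kept probe sets of 13 regulators of PP2A, with lines at the group means and a marker shape for each array. Ensa, Ptpa and Igbp1 are higher in one-cell embryos, Bod1 and Bod1l are lower, and the probe sets of Mastl and Arpp19 move in both directions.

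In the striatin complex, where striatins serve PP2A as B subunits, 2 of 12 measured genes rose and 4 fell, with a median of -0.47, beside 20.6% and 14.8% of all genes. The share that rose lies near that of all genes. Strn4 rose from 110.5, 191, 118 and 224 to 918, 702, 977 and 971 (2.45 ± 0.29 SE, adjusted p = 1.13e-05). Strn3 (-1.39 ± 0.48) and Strn (-1.20 ± 0.41) fell, although another probe set of Strn rose and the mean over its 3 did not pass (-0.22 ± 0.25 SE, adjusted p = 0.545). Slmap, an adaptor of the complex, had signals of 3046, 2005, 3292 and 2563 on the MII arrays and 123, 54.3, 166 and 92.7 on the one-cell arrays on its brightest probe set, without overlap (-4.59 ± 0.32 SE, adjusted p = 1.43e-07). Of its other probe sets, 1426458_at fell (-1.20 ± 0.36) and 1421215_a_at did not pass (-0.11 ± 0.63). Mob4 fell (-1.64 ± 0.38) and the kinase Stk24 rose (1.07 ± 0.27), with a mean over its 2 probe sets that did not pass (0.47 ± 0.21 SE, adjusted p = 0.0969). Strn3 passed on 1 of 3 probe sets, and its mean did not pass (-0.56 ± 0.40 SE, adjusted p = 0.318). The Strn3 probe set that passed was dim, with 64.3, 75.3, 74.6 and 58.9 on the MII arrays and 1.8, 32, 43.7 and 19.2 on the one-cell arrays. Values of one-cell arrays 1, 2 and 4 lie below their array's median, so the fold is poorly set. Cttnbp2nl, a striatin-binding protein, did not pass on its brightest probe set (-0.35 ± 0.32), rose on 1449300_at (2.51 ± 0.28) and rose on average (1.05 ± 0.21 SE, adjusted p = 0.00151).

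Of the PP1 regulatory subunits, Ppp1r15b showed the largest fall among all 104 phosphatase probe sets. It encodes CReP, which brings PP1 to the translation factor eIF2α and removes the phosphate that holds back initiation. The fall rests on 1426798_a_at, the 1 kept of its 2 probe sets. Signals there were 805, 559, 963 and 594 on the MII arrays and 111, 48.5, 65.6 and 51.7 on the one-cell arrays. The other, 1436366_at, was dim in both groups (2.5 to 20.7 on the MII arrays and 3.4 to 11.6 on the one-cell arrays). For 1426798_a_at the following holds. The groups lay far apart, the mean was 10.5-fold lower and the log2 change was -3.25 ± 0.31 (SE, adjusted p = 1.49e-06), with the call held in all 18 alternative fits. The stress-induced partner with the same job, Ppp1r15a (GADD34), gave 1439.6, 2987, 532 and 1679.5 on the MII arrays and 327, 1168, 695 and 1238 on the one-cell arrays. Its groups overlapped and the change was -0.88 ± 0.48 (SE, adjusted p = 0.189). The difference between the 2 genes was not tested.

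The PP1 regulatory subunits other than the Ppp1r3a to Ppp1r3g, Ppp1r9 and Ppp1r12 to Ppp1r16 genes form a remainder class. In it, 4 of 12 probe sets kept rose and 0 fell, with 1 lower at an unadjusted limma p under 0.05. Among all 35 PP1 regulatory probe sets kept, 7 rose (20%) and 6 fell (17.1%). Of all probe sets kept, 19.3% rose and 12.8% fell. Ppp1r11 (inhibitor-3) gave 2.5, 12.4, 3.5 and 8.8 on the MII arrays and 313, 182, 198 and 128 on the one-cell arrays on probe set 1448565_at, a log2 change of 3.65 ± 0.40 (SE, adjusted p = 4.61e-06). The MII values lie under the median of every MII array, so the fold is poorly set, and the other probe set did not pass (0.51 ± 0.34, mean of both 2.08 ± 0.29 SE, adjusted p = 0.000101). Ppp1r7 (Sds22), which works with inhibitor-3 in the assembly of PP1, gave 134, 189, 182 and 157 on the MII arrays and 1037, 588, 550.3 and 897 on the one-cell arrays. The groups did not overlap and the change was 2.11 ± 0.29 (SE, adjusted p = 3.95e-05), while its other probe set did not pass (0.21 ± 0.29, mean of both 1.16 ± 0.21 SE, adjusted p = 0.000892). Ppp1r37, a PP1-binding leucine-rich repeat protein, rose from 12.9, 88.2, 53.6 and 29.6 to 310.2, 204, 153 and 196 (2.17 ± 0.42 SE, adjusted p = 0.000775), with 2 of the MII values below their array's median. Ppp1r21 rose from 143, 159, 151 and 168 to 269.7, 478, 589.8 and 536 (1.48 ± 0.29 SE, adjusted p = 0.00103), a call lost after centring (1.16, adjusted p = 0.0703).

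The myosin phosphatase subunit Ppp1r12a (MYPT1), which brings PP1β to myosin, had 4 probe sets with calls both ways. Probe set 1437735_at fell from 7060.0, 4817, 6331 and 6323 to 1115, 3583, 2192 and 1728 without overlap (-1.62 ± 0.36 SE, adjusted p = 0.00265), and this call held in all 18 alternative fits of single probe sets. Probe set 1453163_at rose from 238, 404, 321 and 299.5 to 932, 408, 565 and 479.5 (0.85 ± 0.31 SE, adjusted p = 0.0426), a call lost in 14 of them, among them without any 1 of MII arrays 1, 3 and 4 and one-cell arrays 1, 3 and 4 (adjusted p up to 0.276 over all fits). The other 2 did not pass (-0.72 ± 0.36 and -0.43 ± 0.29), and the mean over the 4 did not pass (-0.48 ± 0.23 SE, adjusted p = 0.13). Ppp1r14b, of the family of small inhibitors of myosin phosphatase, rose on 1 probe set with overlapping groups (41.2, 52.0, 18.9 and 34.1 against 78.8, 101, 51.5 and 316, 1.40 ± 0.47 SE, adjusted p = 0.0302) and not on the other (-0.098 ± 0.30). One-cell array 4 was far the highest, and the call was lost without it (0.92, adjusted p = 0.141), without one-cell array 2 or without MII array 1, 3 or 4 (adjusted p up to 0.152 over all fits).

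The ASPP proteins, which bind PP1 and p53, split by gene. Ppp1r13b (ASPP1) rose from 104, 135, 98.0 and 129 to 776, 584, 657 and 549 (2.36 ± 0.27 SE, adjusted p = 6.29e-06). Ppp1r13l (iASPP) fell on probe set 1439530_a_at, from 267, 294, 199.6 and 209 to 32.5, 58.0, 64.1 and 49.9 (-2.06 ± 0.31 SE, adjusted p = 8.65e-05). Neither pair of groups overlapped, but the other 2 probe sets of Ppp1r13l did not pass (-0.47 ± 0.35 and 0.56 ± 0.48) and its mean changed by -0.66 ± 0.28 (SE, adjusted p = 0.0861). Ppp1r9a (neurabin), an actin-binding partner of PP1, fell on 2 of 3 probe sets, with 350.2, 725, 310.2 and 388 on the MII arrays and 130.0, 204, 148 and 184 on the one-cell arrays for 1456072_at (-1.30 ± 0.31 SE, adjusted p = 0.00401). The second, 1440285_at (-0.90 ± 0.30 SE, adjusted p = 0.0287), lost its call in 7 of 18 alternative fits, among them without any 1 of MII arrays 2 and 4 and one-cell arrays 3 and 4. Ppp1r3d, which targets PP1 to glycogen, gave 3022, 3706, 2784 and 3049.9 on the MII arrays and 1386, 1634, 1446 and 1773 on the one-cell arrays. The groups did not overlap and the change was -1.004 ± 0.28 (SE, adjusted p = 0.011), a call lost after quantile normalization (-0.55, adjusted p = 0.101). Of the 7 glycogen-targeting genes, 4 had no probe set kept.

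Among PP1 partners without a Ppp1r name, 2 of 11 measured genes rose and 4 fell, with a median of -0.15. Of all genes, 20.6% rose and 14.8% fell, so the share that rose here lies near that of all genes. Phactr3, which binds PP1 and actin, rose from 72.8, 43.9, 57.9 and 76.8 to 292, 193, 248 and 176 (1.70 ± 0.31 SE, adjusted p = 0.000452). The anchoring protein Akap11 fell from 808, 526, 835 and 513 to 219, 277, 210.3 and 182 (-1.53 ± 0.28 SE, adjusted p = 0.000543). The kinetochore scaffold Knl1 (-1.14 ± 0.33) and the kinesins Cenpe (-1.45 ± 0.36) and Kif18a (-1.51 ± 0.37) also fell, and the splicing factor Wbp11 rose (1.07 ± 0.28). Cdca2 (Repo-Man), which carries PP1 to chromatin at mitotic exit, did not pass on its brightest probe set (-0.051 ± 0.32), while the other rose (2.88 ± 0.37) and so did the mean of both (1.42 ± 0.27 SE, adjusted p = 0.00121). Rrp1b, a nucleolar partner of PP1, showed the same pattern. Its brightest probe set did not pass (0.48 ± 0.37), while 1452119_at rose from 63.9, 63.4, 92.9 and 104 to 394, 622, 833 and 1183 (2.996 ± 0.34 SE, adjusted p = 6.22e-06), without overlap, and so did the mean of its 3 (1.55 ± 0.29 SE, adjusted p = 0.000994).

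The PP4 regulatory subunits followed Ppp4c in part. Ppp4r2, its core partner, fell on both probe sets. Probe set 1433850_at gave 5662, 5805, 5989.9 and 5440.2 on the MII arrays and 1012, 3549, 3563 and 3449.5 on the one-cell arrays, without overlap (-1.15 ± 0.40 SE, adjusted p = 0.0368), and lost its call in 9 of 18 alternative fits, among them without any 1 of the 4 MII arrays (adjusted p up to 0.398 over all fits). Without one-cell array 1 its change was -0.70 (adjusted p = 0.0269). Probe set 1433851_at gave 182, 88.8, 177 and 64.1 on the MII arrays and 49.8, 49.5, 39.8 and 19.0 on the one-cell arrays (-1.42 ± 0.40 SE, adjusted p = 0.0121), lost its call without MII array 1 or 3 (adjusted p up to 0.0614), and the mean of both changed by -1.28 ± 0.26 (SE, adjusted p = 0.0018). Ppp4r3a, which directs PP4 to substrates, rose on the 1 kept of its 3 probe sets. Signals went from 88.1, 132, 154 and 112 to 460.0, 249, 203 and 221 (1.11 ± 0.32 SE, adjusted p = 0.0131). This call was lost after quantile normalization (adjusted p = 0.116), after centring (adjusted p = 0.0587) and with the hybridization controls in the fit (adjusted p = 0.13). Ppp4r3b fell on 1 of 4 probe sets (-1.33 ± 0.31 SE, adjusted p = 0.00317), with a mean over the 4 of -0.33 ± 0.21 (SE, adjusted p = 0.265). Ppp4r1 did not pass (-0.56 ± 0.32).

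The PP6 subunits with a Ppp6 name had no call. Ppp6r3 probe set 1423881_at gave 589, 617, 576 and 544 on the MII arrays and 1378, 763, 806 and 927 on the one-cell arrays. All one-cell arrays lay above all MII arrays, with a change of 0.69 ± 0.27 (SE, adjusted p = 0.0673). The other probe sets of Ppp6r3 (0.27 ± 0.52 and -0.14 ± 0.62) and those of Ppp6r2 (0.65 ± 0.35 and 1.05 ± 0.57) had overlapping groups. Ankrd28, a PP6 subunit under another name, did not pass on its brightest probe set (-0.59 ± 0.32), fell on the other (-1.74 ± 0.37) and fell on average (-1.16 ± 0.32 SE, adjusted p = 0.0114). Ankrd44 (-0.32 ± 0.36) and Ankrd52 (0.39 ± 0.51) did not pass.

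Among calcineurin's regulators and targets, 1 of 10 measured genes rose and 1 fell, with a median of 0.021, beside 20.6% and 14.8% of all genes. The calcineurin inhibitor Rcan3 fell from 1354, 722, 1532 and 818 to 149.8, 223, 316 and 118 without overlap (-2.42 ± 0.34 SE, adjusted p = 5.62e-05), and its other probe set did not pass (-0.014 ± 0.33, mean of both -1.22 ± 0.20 SE, adjusted p = 0.000396). The transcription factor Nfatc2 rose on 1 of 3 probe sets, from 77.7, 174, 102 and 116 to 456, 415, 466 and 411 (1.86 ± 0.29 SE, adjusted p = 0.000122), with a mean that did not pass (0.45 ± 0.27 SE, adjusted p = 0.228). Rcan1 gave 396, 523, 450.1 and 537 on the MII arrays and 33.6, 419, 438 and 438 on the one-cell arrays, where one-cell array 1 stood far below the rest (-0.96 ± 0.57 SE, adjusted p = 0.224). The Crtc proteins, transcription coactivators that calcineurin dephosphorylates, did not pass on the brightest probe set of Crtc1 or Crtc3, but 1 other probe set of each rose (2.03 ± 0.40 for Crtc1 and 1.18 ± 0.35 for Crtc3). The means over their probe sets did not pass (adjusted p = 0.0692 and 0.204). Cabin1, which inhibits calcineurin, passed on neither of its probe sets (-0.97 ± 0.38 and -0.81 ± 0.33), while their mean fell (-0.89 ± 0.26 SE, adjusted p = 0.0153).

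Several genes were read by more than 1 probe set, and these did not always move together. Of 25 phosphatase genes with at least 2 kept probe sets, 3 had calls in both directions (Ppp1r12a, Ppp2ca and Ppp2r5c), where 5.16% of the 4787 such genes on the array did. In 6, at least 2 probe sets were called and all the same way, against 21.9% of all such genes. These were Ppp1cb, Ppp1r9a, Ppp2r1a, Ppp2r5e and Ppp4r2, called lower, and Ppp2r2d, called higher. Of the rest, 6 had 1 call and 10 had none. Suffixes mark probe sets that match several transcripts of a gene or of several genes, and 21 of the 104 end in _a_at, 8 in _s_at and 10 in _x_at. The positions of the probes on the transcripts were not analysed here.

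**Figure D5:**
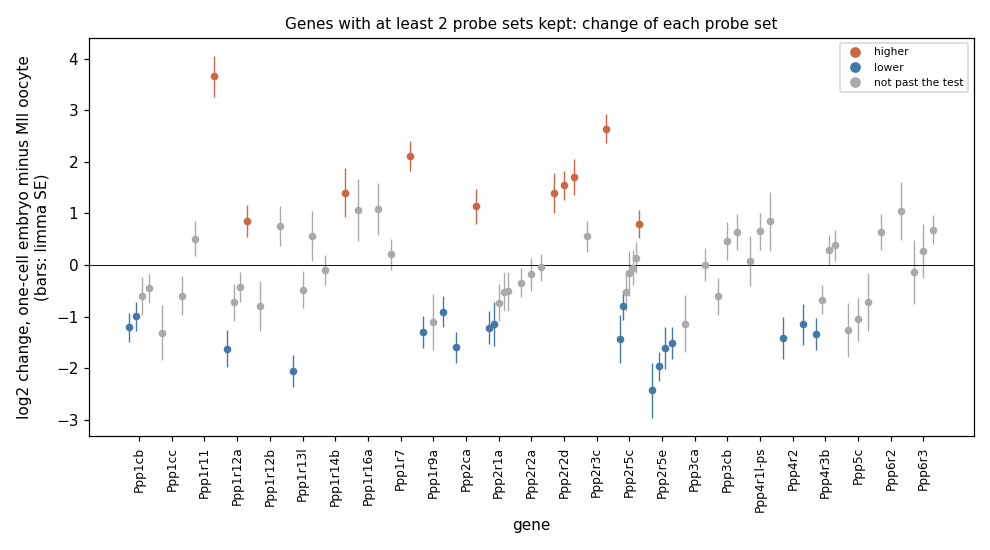
Log2 change, one-cell embryo minus MII oocyte, of each kept probe set of the 25 phosphatase genes with at least 2, with limma SE as bars and colour for the result of the test. The probe sets of Ppp2r5e all lie below 0 and those of Ppp2r2d all above, while Ppp1r12a, Ppp2ca and Ppp2r5c have calls on both sides.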

How the data were processed

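Polysomal RNA was measured on 8 one-colour arrays, 4 of MII oocytes and 4 of α-amanitin-treated one-cell embryos, after 2 rounds of amplification per the labels. The deposited values are intensities on a linear scale, scaled by the authors so that each array has a trimmed mean of 150.0 (2% cut at each end), as the values show. The sources used here do not give the software, its version or the scaling method. The number of arrays limits the precision. Each limma p-value sets the difference between groups against the spread between arrays of pooled cells, so the spread between single cells is not seen.

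Gene names came from the array's platform annotation, which is old. All 79 member genes were found under the same symbol in RefSeq's table, 75 of them protein coding. No genome build is used, so no coordinates are given.

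Probe sets above their array's median on at least 4 arrays were fitted with limma 3.58.1 in R 4.3.3 (log2 of intensity plus 10, lmFit, eBayes with a variance trend, Benjamini-Hochberg adjustment over 23336 probe sets). The code was tested on simulated data. Genes in lists were read by the brightest kept probe set, and means over probe sets were fitted per gene. No column was left unused.

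The members, lists and rules were chosen with earlier results of these data known. The rule named all catalytic and scaffold genes, the 8 largest changes in each direction among regulatory probe sets past the test, without overlap and above the mean 75th percentile (109.4), the 2 genes of smallest p in each list, and genes with opposite calls. All other genes described were chosen with their values in view, that is, after seeing them. The alternatives were other scaling, filters, offset and variance models, array weights, the hybridization controls as a covariate, the replicate number as a block, averaging probe sets, and leaving out each array. Leaving out one-cell arrays 1 and 4 together was chosen after seeing the data.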

Additional observations from a re-analysis of the deposited data

Results flagged for a closer look

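In 5 of 126 groups of 4 arrays tested, 1 array lay apart from the other 3 by Dixon's criterion, where chance gives about 1 in 20. One-cell array 1 was the one apart in 3 of them. It gave 17.2 for Ppp1cc probe set 1452046_a_at, where one-cell arrays 2 to 4 gave 205.3 to 222.2. It gave 220.7 for Ppp3ca probe set 1438478_a_at, against 119.0 to 131.8. It gave 148.8 for the pyruvate dehydrogenase phosphatase Pdp1 (1434228_at), against 334.7 to 381.7. MII array 4 gave 713.9 for Ppp2r5e probe set 1439401_x_at, against 1156.7 to 1180.7 on the other MII arrays, and 18.1 for Ppp5c probe set 1424115_at, against 79.2 to 94.7. One-cell array 1 was the lowest one-cell array in 46 and the highest in 38 of the 104 phosphatase probe sets, and over all probe sets kept in 31.4% and 46.5%.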

How the results depend on the processing

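Of the 38 calls, 8 rises and 10 falls held in every alternative fit of single probe sets that included them, 18 at most (the filter at the 75th percentile left out Ppp2r2b). When the probe sets of a gene were averaged, the gene passed in the same direction for 13 of the 17 rises and 13 of the 21 falls. Of the 8 and 10 above these were all 8 rises and 6 falls, with those of Ppp1r12a, Ppp1r13l, Ppp2ca and Ppp4r3b lost. Leaving out each array in turn gave 13 to 19 rises and 16 to 22 falls. For PP3 to PP6 it gave 1 to 2 rises and 2 to 5 falls, against 1 and 4. The rises numbered 9 after centring each array on its median, with 4 in PP1 and 5 in PP2A. Those of PP3 to PP6 numbered 0 after centring or quantile normalization, 2 with array weights, the filter at the 75th percentile or the hybridization controls as a covariate, and 3 without one-cell arrays 1 and 4. With that covariate, falls in PP3 to PP6 numbered 2, and 12 regulator list genes fell against 20. The median change of the phosphatases (-0.26, beside 0.17 for all probe sets tested) was -0.52 with the filter at the 75th percentile, beside -0.0050. With the covariate it was -0.15, beside -0.090, and for PP3 to PP6 -0.072. After centring it was -0.58, beside -0.15. Without a filter it was 0.0059, beside 0.19, and with an offset of 50 -0.16, beside 0.13. Deviations of same-numbered arrays correlated at -0.16, -0.11, 0.14 and 0.04. MII arrays 3 and 4 correlated best with the one-cell array of their own number, while MII arrays 1 and 2 did not. These few weak correlations cannot tell whether the numbers pair the samples. The replicate block gave 16 rises and 20 falls.

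Signs turned in 28 of 1188 comparisons of the 63 named probe sets. Averaging the probe sets of a gene gave -0.48 for Ppp1r12a, -0.23 for Ppp2ca, -0.29 for Ppp2r5c, -0.56 for Ppp3ca and 0.17 for Ppp3cb. Ppp2r5c 1425725_s_at was 0.025 with array weights, 0.15 with the covariate and -0.39 to 0.050 with 1 array left out, positive without one-cell array 1. Ppp2r5c 1434206_s_at was -0.17 after centring, -0.25 after quantile normalization and -0.082 without one-cell arrays 1 and 4. Ppp2r5c 1455520_at was 0.011 with array weights, 0.38 with the covariate, 0.30 without one-cell arrays 1 and 4, and -0.32 to 0.14 with 1 array left out, positive without MII array 3, MII array 4 or one-cell array 1. Ppp3ca 1438478_a_at was -0.10 with array weights, -0.29 with the covariate, -0.31 after centring, -0.40 after quantile normalization, -0.17 without one-cell arrays 1 and 4, and -0.20 to 0.15 with 1 array left out, negative without MII array 3, MII array 4 or one-cell array 1. Ppp3cb 1433835_at was -0.067 after quantile normalization, and Ppp3cc 1430025_at 0.000243 with the covariate. The causes were not tested.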

Other observations

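Phosphatases outside PP1 to PP6 also held calls in both directions. Of 16 measured genes of the metal-dependent PPM family and PP7, 1 rose and 3 fell, beside 20.6% and 14.8% of all genes. Ppm1b fell on all 3 probe sets, and 1426382_at went from 6166, 4984, 6166 and 5429 on the MII arrays to 898, 2136, 2364 and 1957 on the one-cell arrays without overlap (-1.71 ± 0.35 SE, adjusted p = 0.00117). Pdp1, which activates pyruvate dehydrogenase, fell from 1392, 718, 1194 and 575 to 149, 356, 382 and 335 (-1.63 ± 0.36 SE, adjusted p = 0.00215). Ppm1g rose (1.42 ± 0.31). Phlpp2, which acts on Akt, fell on its brightest probe set (-1.26 ± 0.31), with a mean over both probe sets that did not pass (-0.27 ± 0.24 SE, adjusted p = 0.42). Ppm1l did not pass on its brightest probe set (0.34 ± 0.34), fell on 1435787_at (-0.92 ± 0.31) and had a mean that did not pass (-0.31 ± 0.26 SE, adjusted p = 0.408).

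Of the phosphatases that remove inhibitory phosphates from Cdk1, Cdc25b rose from 117, 107, 129 and 126 to 601, 554, 699.6 and 486 (2.19 ± 0.26 SE, adjusted p = 1.07e-05). The groups did not overlap. Cdc25a did not pass on its brightest probe set (-0.38 ± 0.34), rose on the other (1.48 ± 0.27) and had a mean that did not pass (0.55 ± 0.25 SE, adjusted p = 0.0998).

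Of the 11 probe sets for genes named as pseudogenes or opposite-strand transcripts, 8 were not kept. The 3 kept, all for Ppp4r1l-ps, did not pass (0.85 ± 0.57, 0.65 ± 0.36 and 0.080 ± 0.49).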
